A study of Mus musculus with 2 samples.

Results

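The S100 and annexin genes encode a family of small calcium-binding regulators and a family of proteins that bind membranes when calcium rises. They were taken as every gene of the deposited tables whose symbol begins with S100a or Anxa and a number, or is S100b, S100g or S100z. This gave 29 of 20634 genes, 17 of the S100 family and 12 annexins, chosen by name and not by level. Whole uterus was sequenced from 1 library labelled Mettl3 ed/ed and 1 labelled Mettl3 f/f. Both came from pregnant females aged 6 to 8 weeks that had been mated with fertile males and were killed on gestational day 4, with the day of the vaginal plug as day 1. Mettl3 encodes the catalytic subunit of the RNA N6-methyladenosine writer. The allele behind "ed", the cells in which it acts and the number of animals per library are not stated in the labels.

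S100 proteins are small dimers with a pair of EF-hand loops. On binding calcium most of them expose a surface that docks onto a target protein, while S100g (calbindin D9k) is a monomer that mainly buffers and ferries calcium. Annexins bind negatively charged phospholipid when calcium rises, and several of them are partners of S100 proteins at the membrane. In the rodent uterus S100g is known as a calcium-binding protein controlled by steroid hormones, whereas S100a8 and S100a9 (calprotectin) are known as abundant proteins of neutrophils.

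Levels are FPKM, that is fragments scaled to transcript length and to the mapped total, as deposited by the authors. A difference is the log2 ratio of ed/ed to f/f after adding 1 FPKM to both, which understates differences of low genes. It was called at 2-fold where a gene reached 1 FPKM in at least 1 of the libraries, and such genes are termed expressed. Each genotype has 1 library, hence no replicates and no test, and every difference is between these libraries and not between genotypes. Mettl3 itself was at 10.2 FPKM in ed/ed and 10.6 FPKM in f/f, so its level did not check the labels. The median log2 ratio of all 12165 genes compared was -0.26 (SD 0.58 across genes), so values relative to that median are given where they matter. The steps between low values gave an estimated depth of 17700000 fragments for ed/ed and 18000000 for f/f. Fragment numbers and their intervals below rest on that estimate and cover counting error only. The uterine identity of the tissue was checked on its markers. The steroid receptor genes Esr1 and Pgr were at 39.0 and 13.7 FPKM in ed/ed, against 52.2 and 27.3 FPKM in f/f. Liver, pancreas, oocyte and heart genes Alb, Ins2, Zp3 and Myh6 were listed at 0 in both libraries, and Amh was at 0.440 FPKM in ed/ed and listed at 0 in f/f.

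Both families include abundant transcripts of the uterus, and 8 of the 9 members that averaged 100 FPKM or more were at lower levels in ed/ed than in f/f without reaching 2-fold. Of all 654 genes that abundant, 60.2% were lower, and the 100 FPKM limit was chosen after the values were seen. S100a4 (27.95 FPKM in ed/ed, 9.72 in f/f) was the only member with clear expression in both libraries that differed by 2-fold. Anxa8 and S100a9 were also called higher, but each was listed at 0 in f/f and low in ed/ed. The neutrophil-type genes S100a8 and S100a9 were near the limit of detection in both libraries. Of the 29 members, 20 were expressed, 10 in each family. Of these 20, 3 (15.0%) were called higher in ed/ed, where 2.68% of all genes were, and 0 were called lower, where 6.22% of all genes were. Measured from the all-gene median, the members' counts were again 3 and 0, against 4.96% higher and 2.72% lower of all genes. Because Anxa8 and S100a9 passed the filter through ed/ed alone, they had to differ, and their 2 calls add nothing to the share. S100a8 and Anxa9 passed through f/f alone. At a 1.5-fold rule 3 members were higher, where 7.04% of all genes were, and 7 (35.0%) were lower, where 23.4% of all genes were.

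**Figure D1:**
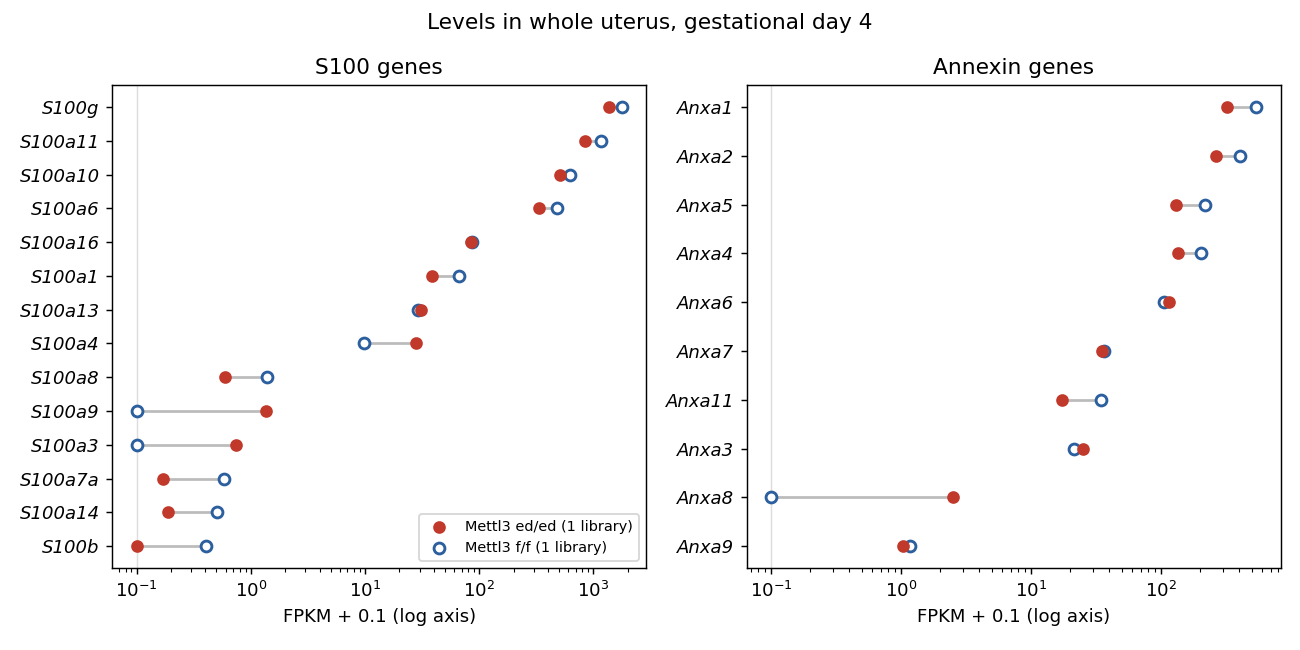
FPKM + 0.1 on a log axis for each S100 gene (left) and annexin gene (right) above 0 in at least 1 library, with filled red points for the ed/ed library and open blue points for the f/f library. Points at 0.1 are listed at 0; the blue points of the most abundant genes lie to the right of the red ones, and S100a4 lies the other way.

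The S100 family was dominated by few genes. Its summed level was 3241 FPKM in ed/ed and 4228 FPKM in f/f, or 0.660% and 0.810% of everything listed for each library. S100g held 42.3% of the S100 sum in ed/ed and 42.0% in f/f. S100a11 held 26.1% in ed/ed and 27.4% in f/f, and S100a10 15.6% and 14.7% in the same order, so the make-up of the family by its leading genes was nearly the same in both libraries. Over its 10 expressed genes the median log2 ratio was -0.33, or -0.075 relative to all genes. Of these 10, 3 had a log2 ratio above 0 and 7 below, and 4 lay above and 6 below the median of all genes. Other genes in the length range of these S100 transcripts (480 to 1127 nt) had a median log2 ratio of -0.0018. The S100 median thus lay further below genes of like length than below all genes.

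S100g (ENSMUSG00000040808, chromosome X, 162961992 to 162964599, GRCm38) was the most abundant member. It was at 1371 FPKM in ed/ed, rank 59 among all listed genes, and at 1774 FPKM in f/f, rank 42. The log2 ratio was -0.37, within 2-fold, and -0.11 from the all-gene median. The deposited values had a ratio of 0.773 with a 95% counting interval of 0.746 to 0.801, from about 5573 and 7339 fragments. Depth was therefore not the limit for this gene, but the spread between animals is unknown. S100g lies inside the span of Ctps2, which is on the opposite strand and was at 8.22 FPKM in ed/ed and 10.8 FPKM in f/f, far below S100g. The RefSeq promoter window of S100g (GRCm38.p6, chrX:162964550-162964849, minus strand, 250 bases before to 50 after the annotated start) is shown because the gene carries the largest share of the family. Capitals mark TATAAA, the core of a TATA box.

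S100g: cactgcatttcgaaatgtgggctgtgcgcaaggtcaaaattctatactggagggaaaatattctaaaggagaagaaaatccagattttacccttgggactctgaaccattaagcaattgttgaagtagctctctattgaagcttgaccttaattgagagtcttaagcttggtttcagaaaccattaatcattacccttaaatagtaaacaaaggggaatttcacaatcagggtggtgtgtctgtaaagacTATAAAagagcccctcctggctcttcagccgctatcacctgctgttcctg

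In S100g the match begins at base 251 of the window, which is the annotated start itself.

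Other genes of epithelial calcium transport had ratios of either sign. Transport across epithelium is pictured as entry through TRPV channels, carriage by calbindins and exit through plasma membrane pumps and exchangers. Of 11 listed genes, 4 were expressed, with 1 called higher and 1 lower, where 2.68% and 6.22% of all genes were. Their median log2 ratio was -0.47, or -0.21 relative to all genes. The entry channel gene Trpv6 was at 10.8 FPKM in ed/ed and 3.31 FPKM in f/f, a log2 ratio of 1.46. The pump genes lay below 0, with Atp2b2 at 8.19 FPKM in ed/ed and 21.3 in f/f (log2 ratio -1.28), Atp2b4 at 6.66 and 10.5 in the same order, and Atp2b1 at 15.7 and 20.3. The exchanger genes Slc8a1, Slc8a2 and Slc8a3 and the vitamin D receptor gene Vdr were below 1 FPKM in both libraries, and Trpv5, Atp2b3 and Cyp24a1 were listed at 0. The related buffer gene Calb1 (calbindin D28k) was at 431 FPKM in ed/ed and 736 FPKM in f/f, a log2 ratio of -0.77. Calb1 belongs to a list of 11 other EF-hand genes, of which 8 were expressed and 0 passed 2-fold. The median of that list was -0.076, or 0.18 relative to all genes. In that list Calm3, a calmodulin gene, had the lowest ratio (71.6 FPKM in ed/ed, 124 in f/f), Sri (sorcin) had the highest ratio (42.6 in ed/ed, 29.7 in f/f), and Hpcal1, a neuronal calcium sensor family gene, was at 39.1 FPKM in ed/ed and 27.7 FPKM in f/f.

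S100a11, S100a10 and S100a6 are broadly expressed S100 genes whose proteins dock onto annexins. S100a11 was at 847 FPKM in ed/ed and 1158 FPKM in f/f (log2 ratio -0.45). S100a10, the light chain of annexin A2, was at 507 FPKM in ed/ed and 623 FPKM in f/f (log2 ratio -0.30). S100a6 (calcyclin) was at 332 FPKM in ed/ed and 480 FPKM in f/f (log2 ratio -0.53). The order of these genes was the same in both libraries, and each was lower in ed/ed by less than 2-fold. From the all-gene median their log2 ratios were -0.19, -0.038 and -0.27.

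The middle of the family split. S100a1, best known for regulating calcium cycling in striated muscle, was at 38.3 FPKM in ed/ed and 66.1 FPKM in f/f. Its log2 ratio of -0.77 was the lowest of the S100 genes, and the ratio of deposited values was 0.580 with a counting interval of 0.500 to 0.672. S100a16 was at 84.5 FPKM in ed/ed and 85.7 FPKM in f/f, with a log2 ratio of -0.020 whose sign changed under 3 other scalings and with the length trend removed. S100a13, which takes part in the release of proteins that lack a signal peptide, was at 30.6 FPKM in ed/ed and 29.2 FPKM in f/f (log2 ratio 0.067). The counting intervals of the ratio, 0.913 to 1.07 for S100a16 and 0.874 to 1.25 for S100a13, both contain 1. From the all-gene median the log2 ratios of S100a1, S100a16 and S100a13 were -0.51, 0.24 and 0.33.

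S100a4 (ENSMUSG00000001020, chromosome 3, 90603771 to 90606045, GRCm38), a binder of non-muscle myosin known in fibroblasts and macrophages, went the other way. It was at 27.95 FPKM in ed/ed and 9.72 FPKM in f/f. The log2 ratio of 1.43 stood 1.69 above the median of all genes. The ratio of the deposited values was 2.87 with a counting interval of 2.02 to 4.19, from about 122 fragments in ed/ed and 43 in f/f. Its call held under all 8 alternatives that gave it a value, with log2 ratios of 1.16 to 1.72. The changes of filter among them could not alter its ratio. Its rank among all genes was 2454 in ed/ed and 6532 in f/f. The annotation places Gm42674 over S100a4 on the same strand; no value of it is used here, and the labels do not say how reads in the overlap were assigned.

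Markers of the cell types known to express S100a4 differed between the libraries in opposite directions. The 7 macrophage markers summed to 285 FPKM in ed/ed and 142 FPKM in f/f, and of the 6 expressed, 2 were called higher and 0 lower. Lyz2 (lysozyme) was at 188 FPKM in ed/ed and 86.6 in f/f, Aif1 at 22.3 and 7.27 in the same order, C1qa at 52.8 and 29.7 and Cd68 at 13.8 and 10.3. Lyz2 made up most of the sum, and the markers did not all go one way. Csf1r was at 3.02 FPKM in ed/ed and 3.97 FPKM in f/f, and Mrc1 at 0.657 FPKM in ed/ed and 0.669 FPKM in f/f. The 6 stroma markers summed to 266 FPKM in ed/ed and 567 FPKM in f/f, with 0 higher and 4 lower. The 5 endothelium markers summed to 38.1 FPKM in ed/ed and 110 FPKM in f/f, with 0 higher and 5 lower. The 5 myometrium markers summed to 614 FPKM in ed/ed and 330.2 FPKM in f/f, with 1 higher and 0 lower. The 6 epithelium markers were level in sum, at 1642 FPKM in ed/ed and 1676 FPKM in f/f, with 0 called either way, but its members split. Cldn7, Cdh1 and Epcam had log2 ratios of 0.91, 0.59 and 0.56, and Krt19, Krt8 and Krt18 of -0.80, -0.48 and -0.44. Over all genes, 2.68% were called higher and 6.22% lower. Measured from the all-gene median, 2 stroma and 3 endothelium markers were called lower. By that measure 3 macrophage, 3 myometrium and 1 of the epithelium markers were called higher, against 4.96% higher and 2.72% lower of all genes. The part of these markers in the S100 and annexin values was not tested. In whole uterus fewer cells of a type and less RNA per cell cannot be told apart.

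**Figure D2:**
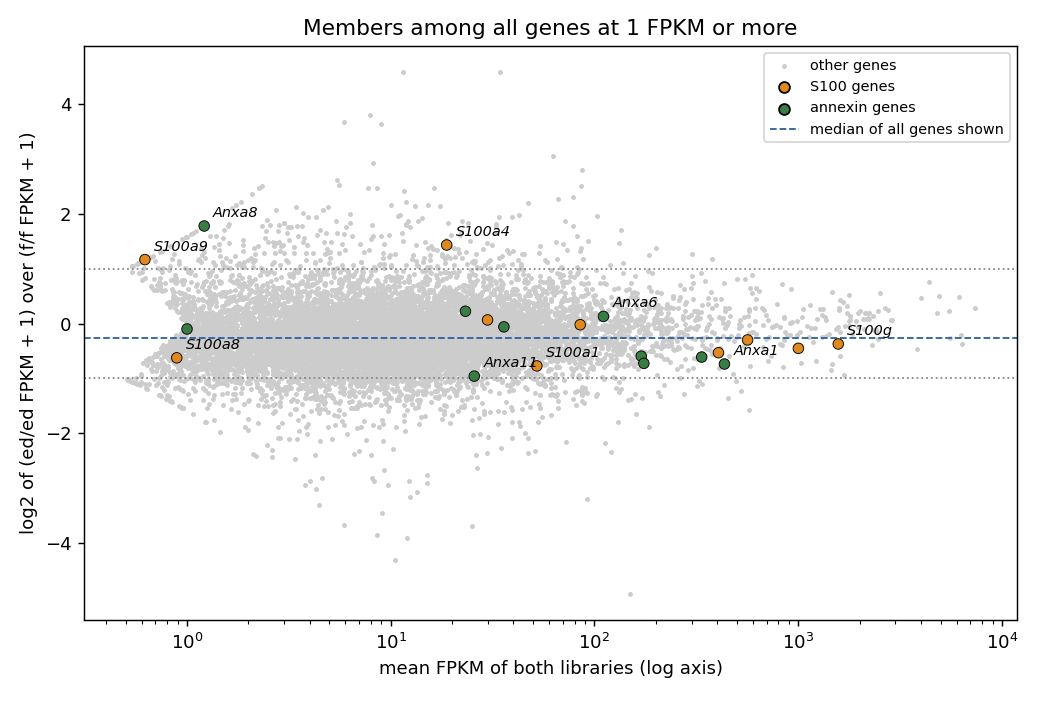
Log2 ratio of ed/ed to f/f, with 1 FPKM added to both, against the mean FPKM of both libraries on a log axis, with a grey point for each expressed gene and orange and green points for S100 and annexin genes. Dotted lines mark 2-fold; S100a4, Anxa8 and S100a9 lie above the upper line and no member lies below the lower one.

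The neutrophil-type genes were close to 0. S100a8 was at 0.489 FPKM in ed/ed and 1.29 FPKM in f/f, estimated as 2 and 5 fragments. S100a9 was at 1.25 FPKM in ed/ed, about 6 fragments, and was listed at 0 in f/f. The products of S100a8 and S100a9 form a heterodimer, yet here S100a8 had the lower value in ed/ed (log2 ratio -0.62) and S100a9 the higher. The counting interval of the S100a8 ratio ran from 0.0388 to 2.49 and contains 1. That of S100a9 began at 1.20 and had no upper end, resting on an estimated 6 fragments against a listed 0 that may be a failed estimate. With 200 or 300 nt in place of 250 nt taken off its transcript length, S100a9 came to 7 or 5 fragments. At 5 against 0, as estimated for S100a3, such an interval began at 0.933 and contains 1. Defining neutrophil genes were as low. Of 14 markers, Elane, Ctsg, Ngp, Camp and Mmp8 were listed at 0 in both libraries, and the highest value in the list was 6.12 FPKM, of Padi4 in f/f. The list summed to 8.09 FPKM in ed/ed and 12.9 FPKM in f/f. Of the 5 expressed, 0 were called higher and 2 lower, where 2.68% and 6.22% of all genes were. The 2 lower markers were Prtn3 (0.164 FPKM in ed/ed, 1.45 in f/f) and Retnlg (0.172 in ed/ed, 1.74 in f/f). Both passed the filter through f/f alone, which favours such calls, so nothing is read from the 2. Ly6g, the usual surface marker of mouse neutrophils, was at 0.515 FPKM in ed/ed and 1.72 FPKM in f/f.

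Receptors through which extracellular S100 proteins act were not called in either direction, with 3 of 6 listed genes expressed and a median log2 ratio of -0.024. Bsg (basigin) was at 196 FPKM in ed/ed and 261 FPKM in f/f, Tlr4 at 4.22 and 4.02 in the same order and Ager (RAGE) at 1.70 and 1.74. Intracellular binding partners were likewise within 2-fold, with 7 of 7 expressed and a median of -0.41. The lowest ratios were those of Iqgap1, a scaffold protein gene (23.3 FPKM in ed/ed, 43.0 in f/f), and of Myh9, the non-muscle myosin heavy chain gene (26.8 in ed/ed, 48.3 in f/f). Ppp5c was at 21.1 FPKM in ed/ed and 29.0 FPKM in f/f, and Stip1 at 56.5 FPKM in ed/ed and 75.2 FPKM in f/f.

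The remaining S100 genes stayed below 1 FPKM. S100a3 was at 0.642 FPKM in ed/ed and listed at 0 in f/f, and S100b, a marker of glia, was listed at 0 in ed/ed and at 0.308 FPKM in f/f. S100a14 was at 0.0870 FPKM in ed/ed and 0.403 FPKM in f/f, and S100a7a at 0.0689 FPKM in ed/ed and 0.487 FPKM in f/f. None of these values came from more than an estimated 9 fragments. S100a2, S100a5 and S100z were listed at 0 in both libraries. S100a2 lies inside the annotated span of S100a3 on the same strand.

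Of the 17 S100 genes, 14 lie on chromosome 3 between 90511034 and 93564643 (GRCm38), with S100b on chromosome 10, S100z on 13 and S100g on X. In both libraries the abundant genes of the locus stood beside genes at or near 0. S100a6 (90612882 to 90624181) follows S100a4 with S100a5 between them, and S100a5 was listed at 0 in both libraries. S100a4 was called higher in ed/ed, and S100a6 had a log2 ratio of -0.53. The promoter windows of S100a4 and S100a6 are shown because these neighbours had ratios of opposite sign. They come from RefSeq (GRCm38.p6) at chr3:90603520-90603819 and chr3:90612644-90612943, both on the plus strand, 250 bases before to 50 after each start, with TATAAA in capitals.
S100a4: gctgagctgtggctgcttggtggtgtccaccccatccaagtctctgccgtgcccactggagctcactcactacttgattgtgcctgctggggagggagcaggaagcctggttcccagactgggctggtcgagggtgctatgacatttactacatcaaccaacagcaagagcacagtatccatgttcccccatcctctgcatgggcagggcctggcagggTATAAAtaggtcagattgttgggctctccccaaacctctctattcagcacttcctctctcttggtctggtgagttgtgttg
S100a6: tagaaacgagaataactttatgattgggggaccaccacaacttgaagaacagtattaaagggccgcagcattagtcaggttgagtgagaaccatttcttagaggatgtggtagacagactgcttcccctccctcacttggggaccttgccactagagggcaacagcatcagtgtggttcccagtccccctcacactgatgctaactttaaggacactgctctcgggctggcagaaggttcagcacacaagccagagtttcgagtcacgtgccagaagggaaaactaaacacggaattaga

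S100a4 holds TATAAA 31 bases before its annotated start, and the window of S100a6 holds none. Windows were found for 23 of the 29 members. TATAAA on either strand was in 7 of these 23, 4 of 14 S100 and 3 of 9 annexin windows (Anxa1, Anxa10, Anxa2, S100a4, S100a8, S100a9 and S100g), against 14.2% of 27025 mouse promoters. The STAT motif TTCNNNGAA was in 2 (S100a7a and S100z), against 8.47%, and the progesterone and glucocorticoid receptor motif ACANNNTGT was in S100a8 alone, against 6.90%. All 3 motifs were searched on both strands, overlap between them was not removed, and a match is a description of the letters and not of binding.

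Between the outermost S100 genes of chromosome 3 the tables list 54 other genes, with the small proline-rich protein and loricrin genes of the epidermal barrier among them, of which 41 were listed at 0 in both libraries and 4 were expressed. Among these 4, 2 were called higher and 0 lower, where 2.68% and 6.22% of all genes were. Sprr2f, a small proline-rich protein gene induced by estrogen in the uterus, was at 153 FPKM in ed/ed and 21.1 FPKM in f/f, and its reads are uncertain because the Sprr2 genes are much alike. Lor (loricrin) was at 2.51 FPKM in ed/ed and 0.745 FPKM in f/f, and passed the filter through ed/ed alone, which favours its call. The fused S100-type genes, which join an S100 domain to a long repeat, stayed below 1 FPKM: 5 of 7 were listed at 0 in both libraries and the highest value was 0.589 FPKM, of Tchh in f/f.

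**Figure D3:**
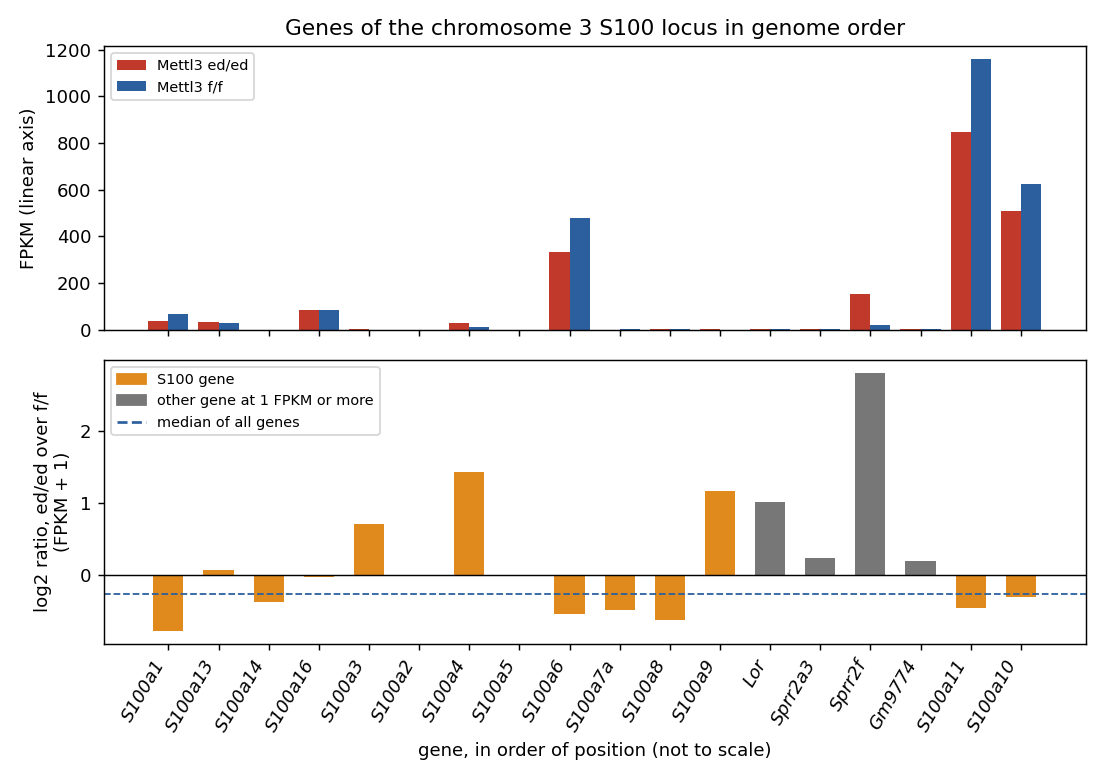
Upper panel, FPKM on a linear axis for the 14 S100 genes and the 4 other expressed genes of the chromosome 3 locus in genome order, with red bars for ed/ed and blue bars for f/f (1 library each). Lower panel, log2 ratio of the same genes, orange for S100 genes and grey for others; S100a4 (1.43) stands up beside S100a6 (-0.53), and Sprr2f is the tallest bar.

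The annexins summed to 1055 FPKM in ed/ed and 1571 FPKM in f/f, 0.215% and 0.301% of everything listed. Over the 10 expressed annexins the median log2 ratio was -0.35, or -0.086 relative to all genes, with 3 above 0 and 7 below. Against the median of all genes they split evenly, 5 above and 5 below. The median hides a split by gene, since 5 annexins lay between -0.59 and -0.96, 4 between -0.098 and 0.23, and Anxa8 was listed at 0 in f/f.

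The lower group held the 4 most abundant annexins. Anxa1, whose product limits leukocyte recruitment through formyl peptide receptors, was at 326 FPKM in ed/ed and 543 FPKM in f/f (log2 ratio -0.74). Anxa2, which links membranes to actin and pairs with S100a10, was at 266 FPKM in ed/ed and 406 FPKM in f/f (log2 ratio -0.61). Anxa5, the phosphatidylserine binder used to stain dying cells, was at 132 FPKM in ed/ed and 218 FPKM in f/f (log2 ratio -0.72). Anxa4, an annexin of secretory epithelia, was at 135 FPKM in ed/ed and 204 FPKM in f/f (log2 ratio -0.59). The counting interval of each ratio of deposited values lay below 1, and the nearest to 1, that of Anxa4, ran from 0.636 to 0.687. These intervals leave out the spread between animals, which is unknown. From the all-gene median the log2 ratios of Anxa1, Anxa2, Anxa5 and Anxa4 were -0.48, -0.35, -0.46 and -0.33. None of the 4 genes reached 2-fold, and all 4 log2 ratios stayed below 0 under every alternative run. Only the scalings and the removal of the length trend could have changed their sign.

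Anxa11 (ENSMUSG00000021866, chromosome 14, 25842156 to 25886804), which tethers RNA granules to lysosomes, came nearest to the threshold on the lower side. It was at 17.2 FPKM in ed/ed and 34.3 FPKM in f/f, with a log2 ratio of -0.96 and a ratio of deposited values of 0.501 (counting interval 0.455 to 0.550). An annotated antisense gene, Anxa11os, overlaps it, and no value of that gene is used here.

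The upper group was mixed. Anxa6, the double-length annexin of muscle and secretory cells, was at 116 FPKM in ed/ed and 106 FPKM in f/f (log2 ratio 0.13). Anxa3 was at 25.2 FPKM in ed/ed and 21.4 FPKM in f/f (log2 ratio 0.23), and Anxa7 at 35.2 FPKM in ed/ed and 36.7 FPKM in f/f (log2 ratio -0.059). Anxa9 was at 0.933 FPKM in ed/ed and 1.07 FPKM in f/f. From the all-gene median the log2 ratios of Anxa6, Anxa3, Anxa7 and Anxa9 were 0.39, 0.49, 0.20 and 0.16. The counting intervals of the ratio lay above 1 for Anxa6 (1.05 to 1.14) and Anxa3 (1.04 to 1.33). Those of Anxa7 (0.895 to 1.03) and Anxa9 (0.509 to 1.54) contain 1. Anxa7 turned positive under 3 other scalings and without the length trend, and Anxa9 under 2 of those scalings and without the length trend. Anxa6 and Anxa3 stayed above 0 under every alternative run. That is no check of their sign, since a pseudocount or filter cannot change it. The scalings and the removal of the length trend raised both ratios.

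Anxa8 (ENSMUSG00000021950, chromosome 14, 34085981 to 34100571) was at 2.43 FPKM in ed/ed, about 70 fragments, and listed at 0 in f/f. If that 0 is a true 0, the counting interval of the ratio began at 18.8 and had no upper end. An exact 0 can be a failed estimate, so no fold is given, and the call rests on the pseudocount. With pseudocounts of 0.1, 1 and 5 FPKM the log2 ratio of Anxa8 was 4.66, 1.78 and 0.57. A630023A22Rik, which overlaps it on the opposite strand, was listed at 0 in both libraries. Anxa10 and Anxa13 were listed at 0 in both.

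**Figure D4:**
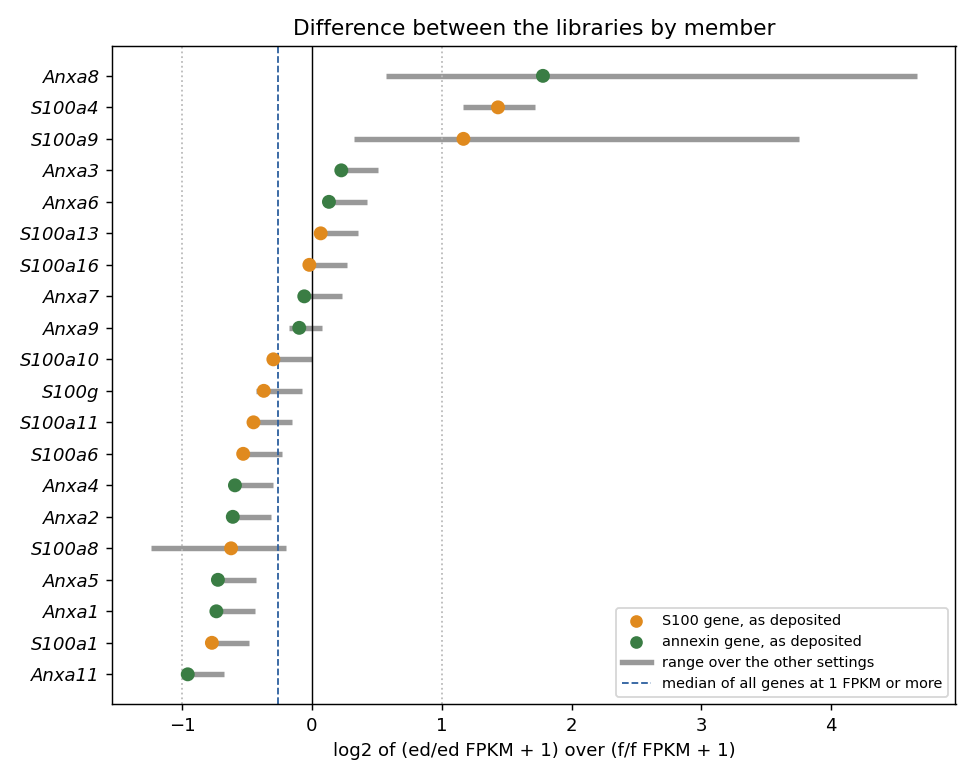
Log2 ratio of ed/ed to f/f, with 1 FPKM added to both, for the 20 expressed members, as deposited (points, orange for S100 and green for annexin genes), with grey bars from the lowest to the highest value under the other settings; dotted lines mark 2-fold and the dashed line the median of all genes (-0.26). The bar of S100a4 stays above the upper dotted line, while those of Anxa8 and S100a9, listed at 0 in f/f, cross it and depend on the pseudocount.

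Partners of both families were set side by side. S100a10 exceeded Anxa2 by 1.91 times in FPKM in ed/ed and 1.53 times in f/f. S100a11 exceeded Anxa1 by 2.60 times in ed/ed and 2.13 times in f/f. S100a6 exceeded Anxa11 by 19.4 times in ed/ed and 14.0 times in f/f. In each of these 3 pairs the S100 partner had the higher log2 ratio, and the S100 transcripts are also shorter. Expressed S100 genes have a longest coding transcript of 480 to 1127 nt, and expressed annexins one of 1447 to 2904 nt. Other genes in these length ranges had median log2 ratios of -0.0018 (875 genes) and -0.20 (3898 genes), and the part of length in the partner ratios was not tested. With the length trend removed, the S100 median was -0.37 and the annexin median -0.17, around a median of -0.0020 for all genes. The S100 partner still had the higher log2 ratio in each of the 3 pairs. These were -0.31 for S100a10 and -0.49 for Anxa2, -0.50 for S100a11 and -0.58 for Anxa1, and -0.53 for S100a6 and -0.75 for Anxa11.

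Genes that work with the annexin A2 and S100a10 complex were mixed. Of 14 listed, 10 were expressed, and 1 was called higher and 0 lower, where 2.68% and 6.22% of all genes were. Their median log2 ratio of -0.26 equalled that of all genes to 2 decimals. The higher gene was Trpv6, whose channel is brought to the membrane by this complex. Plat, the tissue plasminogen activator gene, was at 91.3 FPKM in ed/ed and 48.7 FPKM in f/f (log2 ratio 0.89). Kcnk3, a potassium channel gene, was at 0.404 FPKM in ed/ed and 1.44 FPKM in f/f, and Myof, a membrane repair gene, at 5.34 FPKM in ed/ed and 9.69 FPKM in f/f. The annexin A1 receptor genes Fpr1, Fpr2 and Fpr3 were all below 1 FPKM, with Fpr1 highest at 0.764 FPKM in ed/ed and listed at 0 in f/f.

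The 9 members that averaged 100 FPKM or more had a median log2 ratio of -0.53, against -0.087 for the 654 genes that abundant in these tables. The exception among the 9 members was Anxa6. Below the all-gene median there were also 8 of the 9, against 35.3% of the abundant genes. The nearest of the 8 to that median were S100a10, at -0.038 from it, and S100g, at -0.11. The 100 FPKM limit was chosen after the values were seen.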

How the data were processed

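The authors deposited 1 table per library of whole-uterus RNA-seq, with Ensembl identifier, symbol and 1 value per gene. RNA was extracted with TRIzol and libraries were made with a TruSeq RNA kit, per the labels' protocols. The deposited values were taken as FPKM because the submitters' processing notes name Cufflinks 2.2.1 beside HISAT2 2.2.1, and the values are decimals with exact zeros and unequal sums. The header names no unit. The notes name mm9 and mm10, and the sources used here give no annotation, strand or multi-read setting, so coordinates from GENCODE M21 (GRCm38, 20557 genes matched by identifier) locate genes and not reads.

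Log2 ratios used a pseudocount of 1 FPKM, a filter at 1 FPKM in either library and a 2-fold rule of size, in Python 3.11.15 with pandas 2.3.3, scipy 1.17.1 and statsmodels 0.14.6. The 2-fold calls and the depth estimate were tested on simulated data, in which only well-expressed genes were changed. Their changes were well over 2-fold, so calls on differences near 2-fold were not tested. Short transcripts, those of S100g, S100a4, S100a11, S100a8 and S100a9 among them, were left out of that test. It did not cover the intervals or the removal of the length trend. No p-value was made.

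Depth was the reciprocal of the spacing on which FPKM times effective length (transcript less 250 nt) concentrates, in genes with 1 transcript over 1000 nt (concentration 0.438 in 241 genes for ed/ed and 0.421 in 240 for f/f, where 1 is perfect). Intervals are 95% exact binomial (Clopper-Pearson) on the rounded fragments. For members with several transcripts the longest coding one was used.

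Members, 15 gene lists and the named-gene rule (every expressed member; pathway-list genes past 2-fold and up to 4 with the largest absolute ratio) were chosen with earlier results of these data known. Other genes named were chosen after their values were seen. A gene of the EF-hand list is not reported here and was left out of its counts.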

Additional observations from a re-analysis of the deposited data

How the results depend on the processing

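Pseudocounts of 0.1 and 5 FPKM, no filter, a filter at 5 FPKM, 3 scalings (sum, median ratio and upper quartile), removal of the length trend and a 1.5-fold rule were tried. The count of members higher in ed/ed was 1 in place of 3 with a pseudocount of 5 FPKM or a filter at 5 FPKM, and that gene was S100a4. The count lower was 1 in place of 0 with a pseudocount of 0.1 FPKM, this being S100a8, whose log2 ratio was then -1.24, and 7 at 1.5-fold. The log2 ratio of S100a9, which rests on a listed 0 in f/f, was 0.32 with a pseudocount of 5 FPKM. The S100 median of -0.33 was -0.25, -0.038 and -0.12 under sum, median and upper quartile scaling, and -0.37 without the length trend. The annexin median of -0.35 was -0.60 with the 5 FPKM filter, which drops Anxa8 and Anxa9, -0.28, -0.12 and -0.19 under sum, median and upper quartile scaling, and -0.17 without the length trend. Members near 0 changed sign when the ratios were shifted upwards: Anxa7 to 0.025, 0.23, 0.15 and 0.17 under sum, median and upper quartile scaling and without the length trend, S100a16 to 0.066, 0.27, 0.19 and 0.048 under the same settings, and Anxa9 to 0.053 and 0.0080 under median and upper quartile scaling and 0.075 without the length trend. S100g stayed within 2-fold, from -0.43 to -0.075. Of the other values for single members, 122 kept their direction and side of 2-fold, 11 changed sign and 1 (Anxa8, pseudocount 5 FPKM) dropped below 2-fold. Part of the 122 was fixed in advance. A change of filter cannot alter the ratio of a single gene, and a change of pseudocount cannot alter its sign.

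No paired analysis was possible because each genotype has 1 library. For the same reason no library was left out in turn. Depth limits S100a8, S100a9 and the members below 1 FPKM, and effective lengths of transcripts as short as S100a4 (498 nt) are uncertain: with 200 or 300 nt taken off, S100a4 came to 142 or 100 fragments in ed/ed and 51 or 36 in f/f.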
